A study of Mus musculus with 12 samples.

Results

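The thrombospondins are secreted, calcium-binding glycoproteins of the extracellular matrix. The family has 5 genes in the mouse, Thbs1, Thbs2, Thbs3, Thbs4 and Comp, the last of which encodes cartilage oligomeric matrix protein, also called thrombospondin 5. The members were found by their gene symbols in the deposited expression table, where they are 5 of 24775 genes. Their identifiers there are ENSMUSG00000040152 for Thbs1, ENSMUSG00000023885 for Thbs2, ENSMUSG00000028047 for Thbs3, ENSMUSG00000021702 for Thbs4 and ENSMUSG00000031849 for Comp, and GENCODE M21 places these protein-coding genes on chromosomes 2, 17, 3, 13 and 8. Each of the 5 had reads in all 12 libraries, and each passed the filter on low values.

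The study asked how proline dehydrogenase (PRODH), which begins proline breakdown in mitochondria, affects the remodeling of the heart under pressure overload. C57BL/6 mice received an adeno-associated virus of serotype 9 (AAV9), which reaches heart muscle, as AAV9-PRODH or as the control AAV9-Vector, and were operated on 3 weeks later. Surgery meant a transverse constriction of the aorta (TAC), against which the heart must pump at a higher pressure, or a sham procedure, and RNA of heart tissue was sequenced 4 weeks after it. Of the 4 groups of 3 libraries, vector sham and vector TAC carry the genotype label WT, and both PRODH groups, sham and TAC, the label PRODH Overexpression. All groups, the controls included, had therefore been injected with AAV9 and operated on. The overexpression is described as cardiac-specific, while the sources used here give neither the promoter that drives it nor the age of the mice. The labels speak of mice and number the libraries of a group, but do not say whether a library is 1 mouse, so p-values measure the spread between these samples.

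Thrombospondins are called matricellular proteins because they steer how cells and matrix interact more than they bear load. Thbs1 and Thbs2 assemble into trimers and carry type 1 repeats. They curb blood vessel growth by way of the receptors CD36 and CD47, and Thbs1 can also release TGF-beta from its latent form. Thbs3, Thbs4 and Comp assemble into pentamers without those repeats. In mouse hearts Thbs4 is known as a gene induced by pressure load, and inside the cell its protein binds Atf6, a sensor of stress in the endoplasmic reticulum.

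Prodh itself checked the labels. Under vector it stood at 335.0 ± 43.9 normalized reads (SD, n = 3) after sham and 192.2 ± 46.5 after TAC. Under PRODH it stood at 844.6 ± 306.0 after sham and 1101.6 ± 191.2 after TAC, with no overlap with vector in either pair of groups. Between the sham groups, 11.2% of all genes did not overlap, counting both directions. In PRODH TAC against vector TAC, limma called Prodh higher by 2.52 on the log2 scale at an adjusted p under 0.05. It called 2.12% of all genes higher there, and 0% of all genes, so not Prodh, between the sham groups. Libraries held between 10.13 and 15.23 M reads, and all 10 cardiomyocyte markers had reads in every group. A pair of libraries stood apart: 12 markers of epicardium and mesothelium, the outer lining of the heart, averaged 3.6 in vector TAC replicate 1 and 3.63 in PRODH sham replicate 2, as log2 differences from the mean of vector sham. The other 10 libraries lay between -0.35 and 1.7. The differences of the members and the counts of the gene lists that move with vector TAC replicate 1 are therefore also given without it. That library also held the least of every member in its group. Leaving it out thus raises the vector TAC mean of each member and leaves fewer libraries in that group. PRODH sham replicate 2 stays in these fits, and a fit without both libraries is given in the closing section. A normalized read is a deposited value, a read count divided by the size factor of its library.

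In sham hearts the family was led by Thbs2. Dividing by exon length allows levels to be compared between genes. Per kb of exon Thbs2 stood at 63.9 ± 9.46 normalized reads (SD, n = 3) in vector sham, above 64.5% of protein-coding genes. Thbs1 followed at 33.8 ± 11.8, with no overlap of the 3 libraries of each, 26.1 to 47.4 against 58.2 to 74.9. The lower 3 did not differ beyond their spread, since Thbs4 stood at 21.0 ± 9.71, Comp at 16.8 ± 21.6 and Thbs3 at 15.8 ± 1.08. PRODH sham hearts had the same order, with Thbs2 at 67.6 ± 10.1 and Thbs1 at 35.3 ± 10.7 normalized reads per kb.

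In vector TAC the order per kb was a different one. Thbs4 stood first at 2077.7 ± 1697.8 normalized reads per kb, above 98.3% of protein-coding genes, where in vector sham it had been above 43.6%. Comp was next at 658.2 ± 511.9, followed by Thbs1 at 262.5 ± 163.1, Thbs2 at 53.8 ± 21.6 and Thbs3 at 42.2 ± 23.3. Vector TAC replicate 1 lay far below the other two libraries for Thbs4, Comp and Thbs1. Of the neighbours in this order, Thbs1 and Thbs2 did not overlap between libraries, and the other pairs did. Within each vector TAC library the order was nonetheless this same one. There Thbs4 stood at 2.54 to 3.28 times Comp, and Comp at 1.15 to 3.62 times Thbs1. In PRODH TAC the first place went to Thbs1 at 155.3 ± 1.02, followed by Thbs2 at 45.0 ± 9.16, Thbs4 at 35.5 ± 6.72, Comp at 21.1 ± 3.9 and Thbs3 at 16.5 ± 1.1. There the libraries of Thbs1 lay above those of all other members, and those of Thbs4, 27.8 to 39.7, above those of Comp, 17.4 to 25.2. Thbs2 overlapped with Thbs4, and Comp with Thbs3, although Comp was above Thbs3 within each PRODH TAC library.

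The stretches just upstream of 3 members are shown, those found among the RefSeq promoters used here. Thbs1 and Comp had no entry there, so the windows do not cover the whole family. Each is the 250 bases before the gene start from RefSeq on build GRCm38.p6, written 5′ to 3′ on the strand of the gene: Thbs2 at chr17:14694263-14694512 on the minus strand, Thbs3 at chr3:89214930-89215179 on the plus strand and Thbs4 at chr13:92794819-92795068 on the minus strand. Capitals mark matches, on either strand, to the letters searched, which were TATAAA for the TATA box, CATTCC for TEAD factors, CAGAC for SMAD factors and GGGCGG for the GC box.
Thbs2: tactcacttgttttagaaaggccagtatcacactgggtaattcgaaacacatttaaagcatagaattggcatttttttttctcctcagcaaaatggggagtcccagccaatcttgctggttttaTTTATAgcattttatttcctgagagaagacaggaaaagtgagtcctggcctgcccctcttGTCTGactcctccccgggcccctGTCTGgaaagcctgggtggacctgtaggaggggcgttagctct
Thbs3: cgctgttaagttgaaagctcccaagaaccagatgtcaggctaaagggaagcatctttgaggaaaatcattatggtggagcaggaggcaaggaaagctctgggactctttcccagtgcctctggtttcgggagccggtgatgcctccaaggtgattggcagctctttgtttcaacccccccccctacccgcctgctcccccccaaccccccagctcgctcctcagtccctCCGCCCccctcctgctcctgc
Thbs4: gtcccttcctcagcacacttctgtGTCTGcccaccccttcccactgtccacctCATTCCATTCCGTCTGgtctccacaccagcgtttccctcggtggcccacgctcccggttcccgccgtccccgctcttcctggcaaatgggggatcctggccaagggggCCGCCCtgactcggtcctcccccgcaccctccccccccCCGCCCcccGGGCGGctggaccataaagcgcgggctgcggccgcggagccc
The window of Thbs2 is 46.8% G and C, holds the letters of a TATA box 1 time, and holds the SMAD letters 2 times. The window of Thbs3 is 58.8% G and C and holds 1 GC box. That of Thbs4 is the richest of the 3 in G and C, at 70.8%, and holds 3 GC boxes, 2 SMAD matches and 2 TEAD matches that share a base. Among 32851 promoter windows of this table and this length, 12.4% held the TATA letters, 12.6% the TEAD letters, 42.2% the SMAD letters and 32.7% a GC box. TGANTCA (AP-1), held by 6.7% of windows, had no match in these 3. A match is a run of letters and says nothing about binding.

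**Figure D1:**
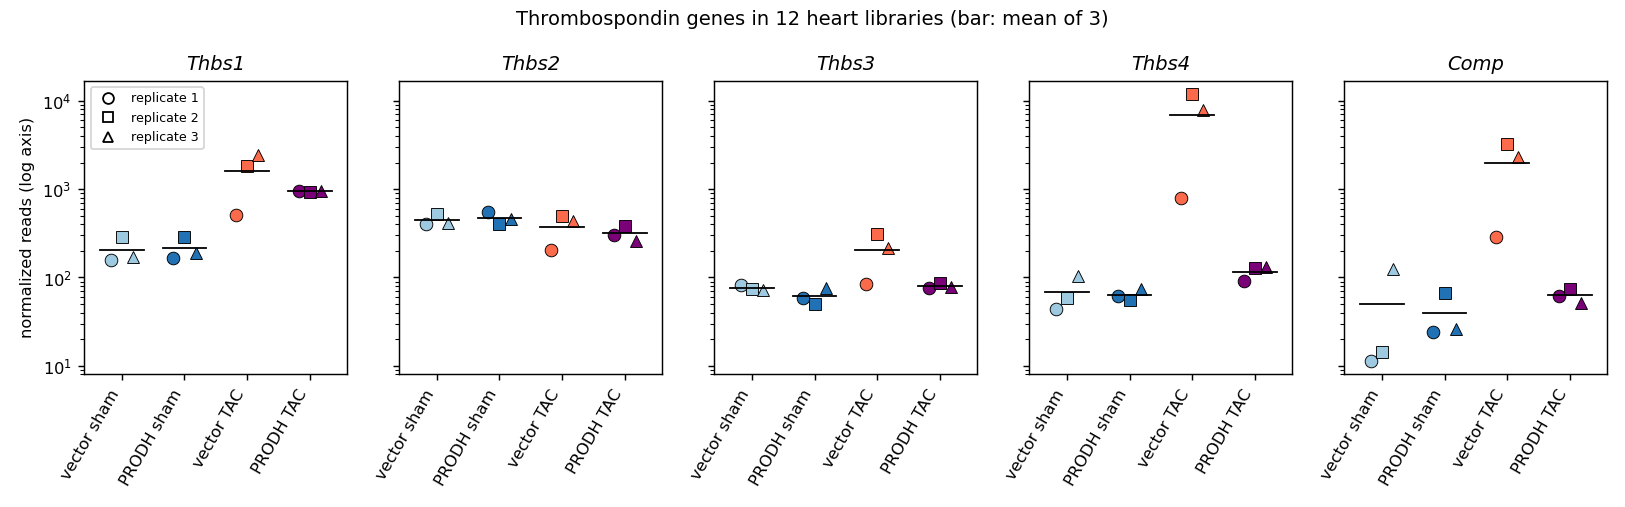
Normalized reads of the 5 thrombospondin genes in 12 heart libraries on a log axis, by group, with a symbol for each replicate number and a bar at the mean of 3. Thbs4 and Comp lie far above all other groups in vector TAC and near the sham level in PRODH TAC, while Thbs1 stays between 936.6 and 949.0 in PRODH TAC.

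TAC in vector hearts raised 4 of the 5 thrombospondins: Thbs4, Comp, Thbs1 and Thbs3. Over all 21173 genes tested, limma called 3.72% higher at an adjusted p under 0.05, and 10.1% had all 3 TAC libraries above all 3 sham libraries, which the same 4 members did. The median log2 difference of the 5 members was 2.73, against 0.02 over all genes. Differences are given on the log2(value + 1) scale with the standard error of the limma fit, 3 libraries a group.

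Thbs4, the pentameric member known from pressure-loaded hearts, had 44.2, 58.0 and 105.1 normalized reads in vector sham replicates 1 to 3, and 799.9, 11819.9 and 7880.4 in vector TAC. Even the lowest TAC library lay above the highest sham library, and the highest was far above the lowest. The mean was 98.9 times the sham mean, and the log2 difference was 6.0 ± 0.67 (limma adjusted p = 8.9e-05), which ranked 2 among 21173 genes by size among rises. Without vector TAC replicate 1 it was 7.2. Over all alternatives it ran from 5.26 to 7.2, with adjusted p from 3.93e-16 to 0.00686.

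Comp, which binds collagen fibrils in cartilage and tendon, had 11.3, 14.5 and 124.0 normalized reads in the vector sham libraries and 284.5, 3255.1 and 2319.3 in vector TAC. One sham library, replicate 3, was high, and the groups did not overlap. The log2 difference was 5.49 ± 0.84 (limma adjusted p = 0.00095), with a mean 39.1 times that of sham, and it ranked 9 among the rises. It was 6.58 without vector TAC replicate 1, and ran from 4.82 to 6.58 over the alternatives.

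Thbs1, the trimeric member that restrains vessel growth and activates latent TGF-beta, had 158.4, 287.9 and 169.2 normalized reads in the vector sham libraries and 504.2, 1840.5 and 2438.4 in vector TAC. The TAC libraries all lay above the sham libraries, with replicate 1 again the lowest. Its log2 difference was 2.73 ± 0.42 (limma adjusted p = 0.00094) and the ratio of means was 7.77. Without vector TAC replicate 1 the difference was 3.42, and it stayed called under every alternative, between 2.28 and 3.42.

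Thbs3, whose excess in heart muscle cells of mice is known to worsen disease, had 82.3, 74.3 and 72.5 normalized reads in the vector sham libraries and 84.8, 307.7 and 218.5 in vector TAC. Replicate 1 of vector TAC was barely above the highest sham library. The log2 difference was 1.22 ± 0.34 (limma adjusted p = 0.04), close to the threshold. Leaving out 1 library kept the call in 3 of 12 fits. It ended without any of vector sham replicates 1, 2 and 3, PRODH sham replicate 1, vector TAC replicates 2 and 3, or PRODH TAC replicates 1, 2 and 3, at values from 0.83 to 1.27, and without vector TAC replicate 1 it was 1.75. Thbs3 shares 318 bases of exon with Mtx1 on the opposite strand, and the sources used here do not say whether counting used strand. Mtx1 itself stood at 168.0 ± 26.8 normalized reads after sham and 164.0 ± 31.0 after TAC with vector.

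Thbs2, the trimeric relative of Thbs1, was not called. Its libraries had 407.2, 524.3 and 411.9 normalized reads after sham and 205.3, 492.1 and 433.6 after TAC. The groups overlapped, with vector TAC replicate 1 the lowest. The log2 difference was -0.33 ± 0.26 (limma adjusted p = 0.54), and it was 0.05 without vector TAC replicate 1.

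**Figure D2:**
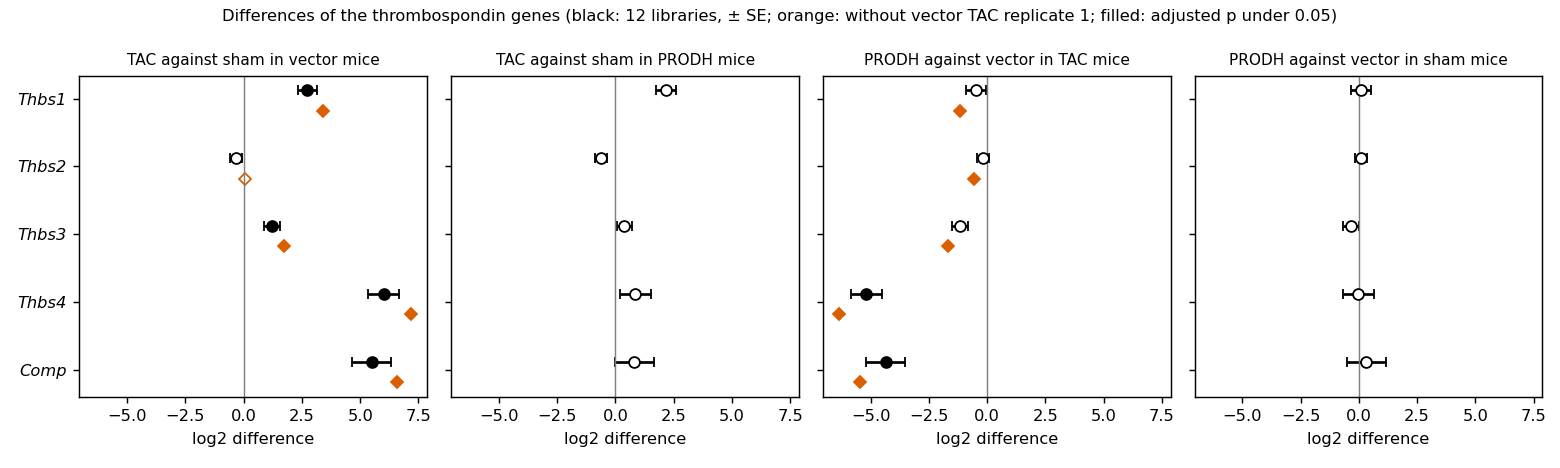
Log2 differences of the 5 genes in 4 comparisons, with black circles for the fit on 12 libraries ± standard error and orange diamonds, where that library is in the groups compared, for the fit without vector TAC replicate 1. Filled symbols have an adjusted p under 0.05; Thbs4 and Comp are filled at 6.0 and 5.49 for TAC in vector mice and at -5.18 and -4.36 for PRODH against vector in TAC mice.

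Among TAC hearts, Thbs4 and Comp were far lower with PRODH than with vector. They are 2 of the 5 members, where limma called 1.8% of all genes tested lower and 10% had no overlap in that direction. The members' median log2 difference was -1.16, against -0.01 over all genes. Vector TAC libraries enter both this comparison and the one with vector sham, so the size of a rise above and of a fall here are not independent.

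Thbs4 had 91.3, 128.5 and 130.6 normalized reads in PRODH TAC, against 799.9 to 11819.9 in vector TAC. The highest PRODH TAC library lay below the lowest vector TAC library. The log2 difference was -5.18 ± 0.67 (limma adjusted p = 0.0011), with vector TAC at 58.5 times the PRODH TAC mean. Over the alternatives it lay between -6.37 and -4.43, with adjusted p from 3.78e-12 to 0.0229.

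Comp had 61.5, 74.7 and 51.6 normalized reads in PRODH TAC, all below the 284.5 of the lowest vector TAC library. The fall was -4.36 ± 0.84 (limma adjusted p = 0.01). It was -5.45 without vector TAC replicate 1, and the call ended without vector TAC replicate 2 at -3.69 and without PRODH TAC replicate 3 at -4.23. The highest adjusted p over the alternatives was 0.062.

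Thbs1, Thbs2 and Thbs3 overlapped between both TAC groups and were not called. Thbs1 stood at 949.0, 936.6 and 943.0 normalized reads in PRODH TAC, inside the vector TAC range of 504.2 to 2438.4, and differed by -0.48 ± 0.42 (limma adjusted p = 0.65). Thbs3 had 75.4, 85.6 and 77.9 in PRODH TAC and differed by -1.16 ± 0.34 (limma adjusted p = 0.075). Thbs2 had 298.8, 385.4 and 260.2 and differed by -0.18 ± 0.26 (limma adjusted p = 0.8). Thbs3 was called on all 12 libraries by edgeR, at -1.38, and by DESeq2, at -1.36. Without vector TAC replicate 1 the differences were -1.17 for Thbs1, -0.57 for Thbs2 and -1.69 for Thbs3, and limma called all 5 members lower, where it called 6.2% of 20834 genes lower. Adjusted p over all alternatives ran from 0.00102 to 0.992 for Thbs1, from 0.0284 to 0.98 for Thbs2 and from 6e-05 to 0.327 for Thbs3.

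Within PRODH mice, TAC left Thbs1 as the member with the widest gap from sham. It had 166.1, 288.1 and 189.3 normalized reads in PRODH sham, and the 3 PRODH TAC libraries, between 936.6 and 949.0, lay 4.4 times above them on average. The log2 difference of 2.17 ± 0.42 did not pass (limma adjusted p = 0.095), in a comparison where 0.0189% of all genes were called higher and 10.4% had no overlap in that direction. Adjusted p over the alternatives ran from 1.61e-05 to 0.564, and the difference was called without vector TAC replicate 1, with only these 2 groups in the fit, and by DESeq2. Against vector sham the same libraries differed by 2.25 ± 0.42 (limma adjusted p = 0.074), where 0.085% of all genes were called higher. The groups did not overlap, as was so upward for 6.39% of all genes. The difference was called on leaving out library 1 or library 3 of vector TAC, at 2.25 both times.

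None of the other members was called between PRODH TAC and PRODH sham in the fit on 12 libraries, though Thbs4 and Thbs2 did not overlap. Thbs4 had 61.4, 56.3 and 73.3 normalized reads in PRODH sham, so the PRODH TAC libraries lay above them without overlap, and the log2 difference was 0.86 ± 0.67 (limma adjusted p = 0.72). With only these 2 groups in the fit it was called, and adjusted p over the alternatives ran from 0.0259 to 0.878. Comp differed by 0.81 ± 0.84 and Thbs3 by 0.39 ± 0.34, both with overlap. Thbs2 was lower in all 3 PRODH TAC libraries than in any PRODH sham library, 260.2 to 385.4 against 408.4 to 548.4, a difference of -0.6 ± 0.26 (limma adjusted p = 0.56). Groups did not overlap downward in 11.4% of all genes. Vector sham had 407.2 to 524.3 normalized reads of Thbs2, from which PRODH TAC differed by -0.52 ± 0.26 without a call (limma adjusted p = 0.85).

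The difference between both TAC responses was tested directly. For Thbs4 the response in PRODH mice was -5.15 ± 0.95 relative to that in vector mice (limma adjusted p = 0.055), just outside the threshold. Over all genes 0.0567% were called lower in this test. The Thbs4 value was called in 6 of 21 alternatives, among them without vector TAC replicate 1 at -6.34, where 1.28% of all genes were called lower, with the replicate number as a block, and by edgeR and DESeq2. For Comp it was -4.68 ± 1.19 (limma adjusted p = 0.2), and -5.77 and called without vector TAC replicate 1. For Thbs1 it was -0.55 ± 0.59 (limma adjusted p = 0.85), for Thbs3 -0.83 ± 0.48 (limma adjusted p = 0.7) and for Thbs2 -0.26 ± 0.36. Without vector TAC replicate 1, Thbs3 was called at -1.36, and Thbs1 at -1.24 and Thbs2 at -0.65 were not.

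PRODH in sham hearts gave no call for any member. All 5 overlapped between PRODH sham and vector sham, with log2 differences of 0.08 ± 0.42 for Thbs1, 0.08 ± 0.26 for Thbs2, -0.33 ± 0.34 for Thbs3, -0.03 ± 0.67 for Thbs4 and 0.32 ± 0.84 for Comp. The groups did not overlap in either direction for 11.2% of all genes. Limma called 0% of all genes in this comparison, and so not Prodh either. Of the 21173 genes tested, 871 had an unadjusted limma p under 0.05 there, and edgeR called 0 and DESeq2 7. Comp spread widely in sham hearts, with 124.0 normalized reads in vector sham replicate 3 and 67.3 in PRODH sham replicate 2, while the other 4 sham libraries had between 11.3 and 26.3. Its direction here turned with the tool, to -0.33 by edgeR and -0.35 by DESeq2.

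**Figure D3:**
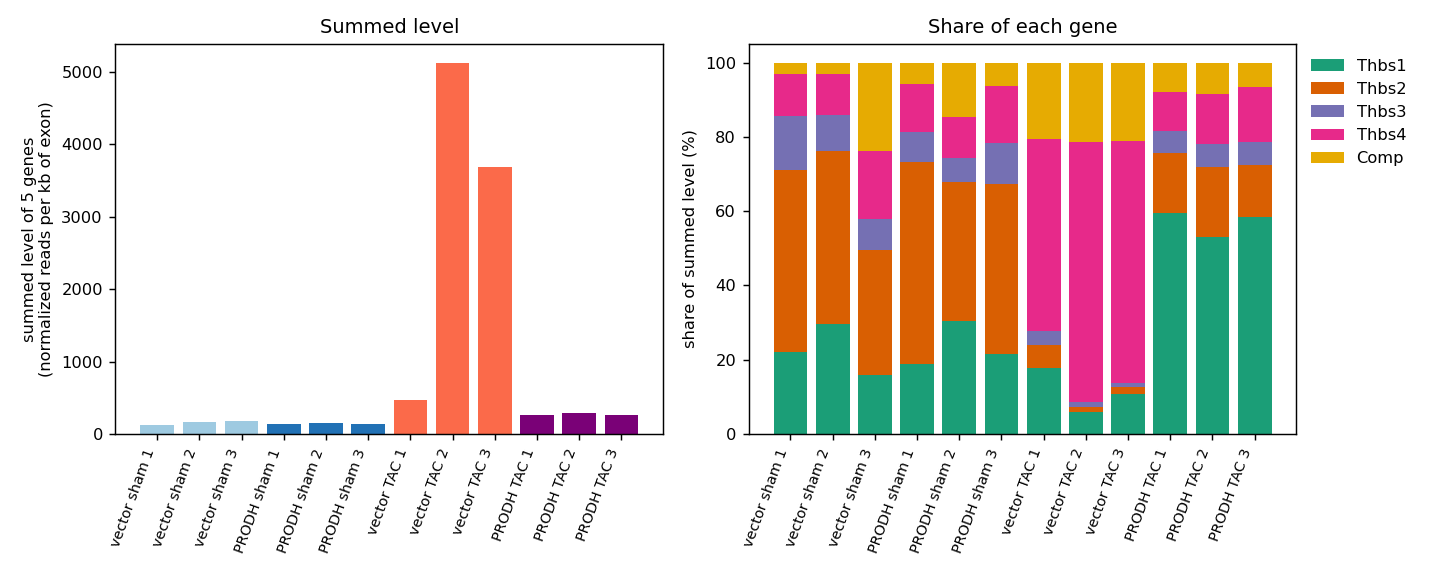
Left, the summed level of the 5 genes per library in normalized reads per kb of exon; right, the share of each gene in that sum in percent. The sum reaches 469.0 to 5128.0 in vector TAC and stays between 263.1 and 291.2 in PRODH TAC, where Thbs1 makes up 53.0 to 59.4%.

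The makeup of the family was taken as the share of each member in the summed level per kb. After sham the sum was 151.4 ± 29.5 normalized reads per kb with vector and 148.2 ± 6.65 with PRODH (SD, n = 3). After TAC it was 3094.5 ± 2385.3 with vector and 273.3 ± 15.6 with PRODH. Thbs2 held the largest share in both sham groups, 43.1% and 45.8% on average. In vector TAC that place belonged to Thbs4, with 51.9, 70.1 and 65.0% in replicates 1 to 3. The share of Comp was alike in all 3 of these libraries, at 20.4, 21.4 and 21.2%, although their sums ran from 469.0 to 5128.0. In PRODH TAC Thbs1 held 56.9% on average, Thbs2 16.4% and Thbs4 13.0%.

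Ratios between members within a library do not depend on the scaling of that library. The log2 ratio of Thbs4 to Thbs1 per kb was -0.73 ± 0.84 after sham with vector, -0.83 ± 0.55 after sham with PRODH, 2.57 ± 1.01 after TAC with vector and -2.15 ± 0.3 after TAC with PRODH (SD, n = 3). In vector TAC replicate 1, where both genes were lower than in the other vector TAC libraries, Thbs4 was still 2.93 times Thbs1. In PRODH TAC it was 0.178 to 0.256 times Thbs1. The vector TAC and PRODH TAC ratios did not overlap, with an exact two-sided permutation p of 0.1, the smallest that 3 against 3 can give. The log2 ratio of Thbs4 to Comp was 1.09 ± 1.28 after sham and 1.56 ± 0.19 after TAC with vector, and 0.75 ± 0.4 after TAC with PRODH. Here too the TAC groups did not overlap, at 1.34 to 1.71 against 0.42 to 1.19 (exact permutation p = 0.1, two-sided). Thbs1 to Thbs2 was -0.96 ± 0.27 after sham and 2.1 ± 0.6 after TAC with vector, and 1.81 ± 0.29 after TAC with PRODH, and the ratios of both TAC groups differed by less than their spread (exact permutation p = 0.4, two-sided).

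Across the 12 libraries, which share their groups, Thbs4 and Comp varied together with a Pearson correlation of 0.96 on the log2 scale, and Thbs3 with Thbs4 at 0.93. Thbs1 correlated with Thbs4, Comp and Thbs3 at 0.74 to 0.77. Thbs2 correlated with the other four between -0.25 and 0.15. These are descriptions of 12 libraries that fall into groups, with no test.

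Genes whose pattern over the 12 libraries was most like that of a member were found among genes with a mean of at least 10 normalized reads. For Thbs4 they were Nkd2 at r = 0.988, Dio2, the enzyme that activates thyroid hormone, at 0.986, Col5a2, a collagen chain, at 0.981, Ltbp2 at 0.979 and Fzd1 at 0.978. Dio2, for one, had means of 15.1 and 11.8 normalized reads in vector and PRODH sham hearts and of 393.1 and 29.6 in vector and PRODH TAC hearts. For Comp they were Sfrp1 at 0.979, Dio2 and Col3a1 at 0.973, and Dkk3 and Myh7 at 0.972. Myh7, the slow myosin heavy chain that loaded mouse hearts turn on, had means, in the same order, of 1004.0, 893.6, 12039.4 and 1836.2. Thbs3 was most like Ttc9 at 0.98, Fn1 at 0.979, Plod2 at 0.975, Sod3 at 0.972 and Fbln2 at 0.971. For Thbs1 the nearest were Nuak1 at 0.966, Mafk at 0.962, Myc at 0.96, Ddr1 at 0.957 and Usp35 at 0.954. Myc, a transcription factor of cell growth, had means of 38.2, 51.8, 122.7 and 107.0. Its PRODH TAC mean lay above both sham means, as did those of Thbs1, Dio2 and Myh7. The nearest to Thbs2 were less alike, led by Msl2 at 0.884 and Lzts2 at 0.872, and included Myh11 at 0.871, Ddx46 at 0.869 and Per2 at 0.868.

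In RNA from heart tissue, more cells of a type and more RNA per cell cannot be told apart. Markers of activated fibroblasts, the cells that deposit matrix in a loaded heart, moved with Thbs4 and Comp. The 10 markers lay 2.01, 3.89 and 3.44 log2 units above their sham mean in vector TAC replicates 1 to 3, and 0.69 to 0.74 above it in PRODH TAC. Their summed level ran from 3758.7 to 4786.4 normalized reads in vector sham and from 3222.9 to 3665.0 in PRODH sham, against 13010.8 to 57935.4 and 5085.5 to 5374.9 in the corresponding TAC groups. Of the 10, 8 rose in vector TAC and 8 fell in PRODH TAC against vector TAC. Cilp, Ltbp2, Postn and Tnc among them also belong to gene lists described here, and Acta2 to the smooth muscle markers. General cardiac fibroblast markers also moved, with 6 of 10 higher in vector TAC and 5 lower with PRODH, at medians of 0.88 and -0.97. Their sums ran from 40569.4 to 43560.5 in vector sham, 52526.3 to 89010.1 after TAC with vector and 37077.7 to 43464.0 after TAC with PRODH. Col1a1 and Dcn of this list are also listed as matrix partners of thrombospondins, as are Acan, Col2a1, Col9a1 and Matn3 of the chondrocyte and valve markers. Cardiomyocyte markers went the other way, with 2 of 10 lower in vector TAC and 2 higher with PRODH, at medians of -0.46 and 0.44. Both times these were Ryr2 and Pln. Leaving out 1 library kept the call of Ryr2 in 3 of 12 fits in each comparison, and that of Pln in 9 and then 4. Over all genes tested, 3.72% rose and 4.05% fell in vector TAC, and 2.12% rose and 1.8% fell with PRODH. Without vector TAC replicate 1, 5 cardiomyocyte markers fell in vector TAC and 5 rose with PRODH, at medians of -0.67 and 0.57. That fit called 7 general fibroblast markers higher and then 7 lower, and 8 and 8 of the activated ones. Of all genes it called 7.8% higher and 8.78% lower in vector TAC, and 7.02% higher and 6.2% lower with PRODH. The part of fibroblasts and cardiomyocytes in the differences of the thrombospondins was not tested.

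Other cell types that express thrombospondins were checked in the same way. Of 7 markers of tendon and ligament, where Thbs4 and Comp are abundant, the summed level was 226.4 to 490.5 normalized reads after sham and 695.0 to 3093.1 after TAC with vector, and 316.8 to 1063.4 and 344.5 to 507.2 with PRODH. Tnmd, the defining tenocyte gene, was at 0 in vector sham and had 8.92, 133.8 and 108.2 normalized reads in vector TAC, then 1.99, 0 and 0 in PRODH TAC. Of the 6 tendon markers tested, Tnmd, Scx, Fmod and Chodl rose in vector TAC and fell with PRODH, while Mkx, at -1.72 ± 0.52 in vector TAC (limma adjusted p = 0.058), and Egr1, at -0.04 ± 0.6, were not called, and Kera had at most 1.49 normalized reads. In vector TAC the largest part of the sum was Fmod, a matrix proteoglycan, with 300.1, 2231.5 and 1608.3 normalized reads in replicates 1 to 3, and in the highest sum of PRODH sham it was Egr1, with 957.2. Chondrocyte and valve markers summed to 40.1 to 47.1 after sham and 87.0 to 336.0 after TAC with vector, and to 53.5 to 76.2 and 76.8 to 91.1 with PRODH, and Col2a1, the defining collagen of cartilage, had at most 2.23 normalized reads in any library. Platelets store Thbs1, and their 9 markers summed to 353.1 to 632.5 after sham and 320.4 to 954.9 after TAC with vector, and to 473.3 to 1235.1 and 514.9 to 684.1 with PRODH, with 0 of 9 called between vector TAC and vector sham. The library richest in platelet markers, PRODH sham replicate 2, had 288.1 normalized reads of Thbs1, close to the 287.9 of vector sham replicate 2. Vector TAC replicate 1, with a mesothelial mean of 3.6 and a summed macrophage level of 22432.9 against 10563.6 and 10305.9 in the other vector TAC libraries, had the lowest Thbs1, Thbs2, Thbs3, Thbs4 and Comp of its group. Whether these cells bear on the differences was not tested.

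**Figure D4:**
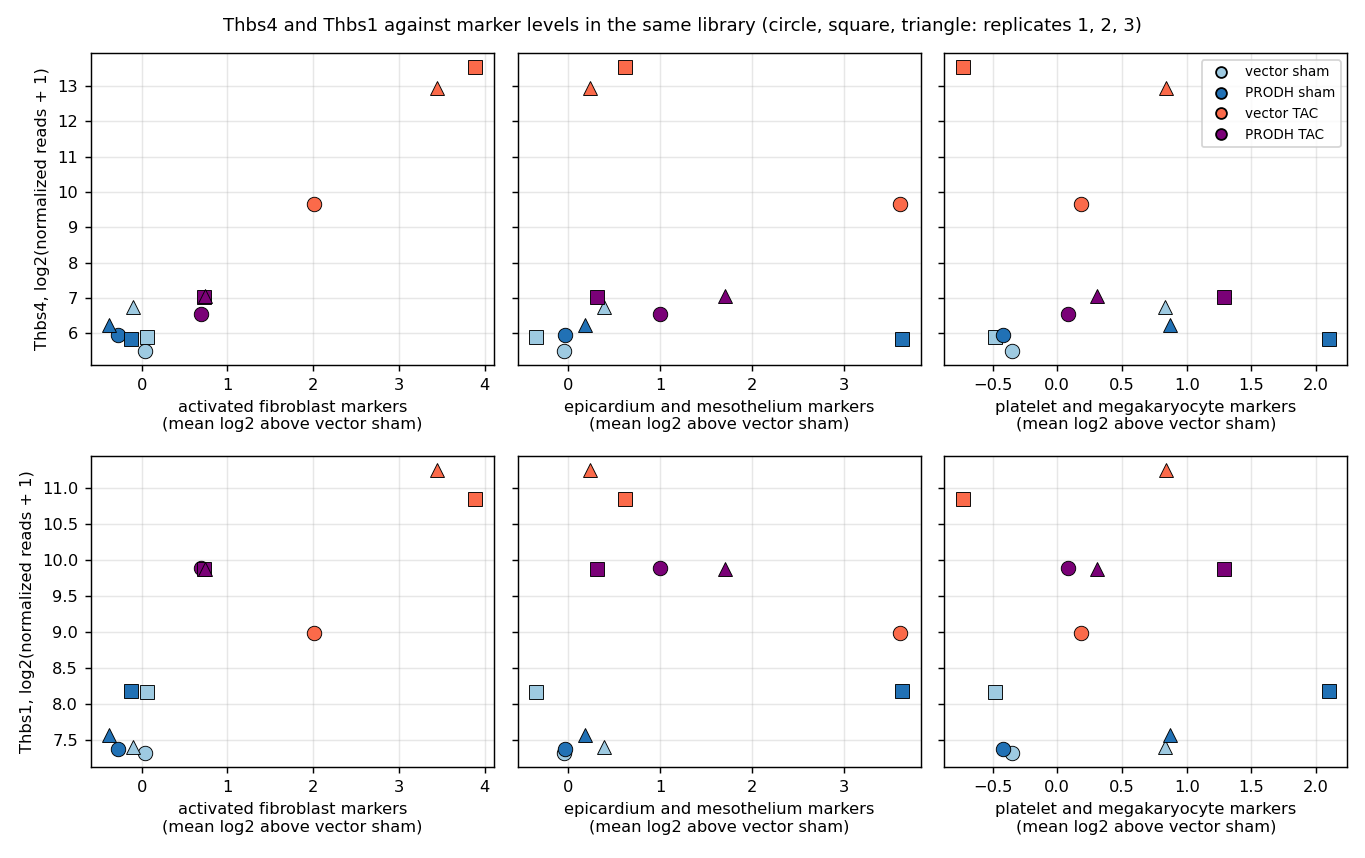
Log2(normalized reads + 1) of Thbs4 (upper row) and Thbs1 (lower row) against the mean log2 level of markers of activated fibroblasts, epicardium and mesothelium, and platelets in the same library, each point a library. Thbs4 and the activated fibroblast markers are both highest in vector TAC, where the markers lie at 2.01 to 3.89, while Thbs1 in PRODH TAC lies well above sham at marker levels of 0.69 to 0.74.

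The genes that thrombospondins work with were followed in lists, counted at the same adjusted p under 0.05. Over all genes tested, limma called 4.05% lower and 3.72% higher in vector TAC against sham, and 1.8% lower and 2.12% higher in PRODH TAC against vector TAC. Leaving out library 1 of vector TAC, these shares were 8.78% and 7.8%, then 6.2% and 7.02%. In all 7 lists that fit called more members higher in vector TAC and more lower with PRODH. The counts of members lower with PRODH were smaller in all 7 lists on leaving out library 2 or 3 of vector TAC or any library of PRODH TAC. Among cell surface partners, 2 of 19 rose in vector TAC against sham and 0 fell, and 2 fell in PRODH TAC against vector TAC. The medians were 0.23 and -0.1. With library 1 of vector TAC left out, 7 rose, 1 fell and 6 fell with PRODH, and leaving out any other library gave 1 to 2 rises and 0 to 2 falls with PRODH. The integrin chain Itgb5 was 0.89 ± 0.16 higher in vector TAC (limma adjusted p = 0.0022) and 0.71 lower with PRODH, at -0.71 ± 0.16 (limma adjusted p = 0.019), where the call ended on leaving out library 2 or 3 of either group. The heparan sulfate carrier Sdc1 was 0.72 ± 0.18 higher (limma adjusted p = 0.025) and then differed by -0.82 ± 0.18 (limma adjusted p = 0.021). The call of the rise of Sdc1 ended on leaving out library 1 or 2 of vector sham or library 2 or 3 of vector TAC, and that of its fall on leaving out library 2 or 3 of vector TAC or any library of PRODH TAC. The receptor genes Cd36 and Cd47 were not called in either comparison. In vector TAC against sham Cd36 was at -0.51 ± 0.2 and Cd47 at 0.02 ± 0.12.

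Genes around Atf6 and the chaperones of the endoplasmic reticulum, the intracellular side of Thbs4, differed less than Thbs4 itself. Of 20, 2 rose and 1 fell in vector TAC, with a median of 0.18, and 2 fell in PRODH TAC against vector TAC, with a median of -0.34. Atf6 differed by -0.26 ± 0.16 and the main chaperone Hspa5 by -0.16 ± 0.2 in vector TAC, neither called. Both rises were genes of the integrated stress response, Atf4 at 0.48 ± 0.11 and Ddit3 at 0.59 ± 0.15, and Herpud1, which works in the removal of misfolded proteins, fell at -0.86 ± 0.16 (limma adjusted p = 0.0032). The calls of Atf4 and Ddit3 ended on leaving out library 3 of vector sham or library 2 or 3 of vector TAC, and that of Ddit3 also on leaving out library 2 of vector sham. With PRODH the disulfide isomerase Pdia3 was at -0.67 ± 0.14 (limma adjusted p = 0.015) and Sdf2l1 at -0.75 ± 0.19 (limma adjusted p = 0.04). Both calls ended on leaving out library 2 or 3 of either TAC group, that of Pdia3 also without library 1 of PRODH TAC, and that of Sdf2l1 also without library 2 or 3 of vector sham or library 1 of PRODH sham. Of the 20, 10 were called higher in vector TAC and 12 lower with PRODH once vector TAC replicate 1 was left out. Leaving out any other library gave 0 to 2 rises and 0 to 3 falls with PRODH, the 0 rises on leaving out library 3 of vector sham or library 2 or 3 of vector TAC.

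TGF-beta, which Thbs1 can activate, was followed through its ligands, receptors, latency proteins and targets. Of 19 genes, 9 rose and 1 fell in vector TAC, with a median of 0.61, and 6 fell and 0 rose in PRODH TAC against vector TAC, with a median of -0.55. There were 13 rises at a median of 1.03, and 14 falls with PRODH at a median of -0.92, when library 1 of vector TAC was left out. Leaving out any other library gave 6 to 9 rises and 2 to 7 falls with PRODH. Ltbp2, a microfibril protein of the latent TGF-beta binding family, was 5.09 ± 0.6 higher in vector TAC (limma adjusted p = 0.00012) and -3.84 ± 0.6 with PRODH (limma adjusted p = 0.0029). The ligand Tgfb3 was 1.53 ± 0.21 higher (limma adjusted p = 0.00033) and then -1.17 ± 0.21 (limma adjusted p = 0.0056). The receptor Tgfbr1 differed by -0.88 ± 0.17 with PRODH, a call that ended on leaving out library 2 of either TAC group or library 3 of PRODH TAC.

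Matrix partners that bind thrombospondins changed in larger number. Of the 15 tested of 20 listed, 10 rose in vector TAC and 0 fell, with a median of 1.6, and 7 fell with PRODH and 0 rose, with a median of -1.33. The fit without vector TAC replicate 1 gave 13 rises and 13 falls with PRODH, at medians of 2.47 and -1.84. Leaving out any other library gave 8 to 10 rises and 1 to 7 falls with PRODH, the 1 without vector TAC replicate 2. Col9a2, a chain of the cartilage collagen that Comp binds, was 4.05 ± 0.43 higher (limma adjusted p = 6.9e-05) and then -2.38 ± 0.43 (limma adjusted p = 0.0067), a call that ended without vector TAC replicate 2 at -2.03. Col12a1, which coats collagen fibrils, was 4.89 ± 0.77 higher and -3.96 ± 0.77 with PRODH, where the call ended on leaving out library 3 of either TAC group or library 2 of vector TAC. Col1a2, a chain of the main fibrillar collagen, was 1.96 ± 0.32 higher (limma adjusted p = 0.0015). The small proteoglycan Dcn was at -1.05 ± 0.17 with PRODH (limma adjusted p = 0.0034). The same vector TAC libraries held the activated fibroblast markers at 2.01 to 3.89 above vector sham.

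Among 16 other matricellular genes, 8 rose and 0 fell in vector TAC, with a median of 0.9, and 6 fell and 0 rose with PRODH, with a median of -0.62. In the fit without vector TAC replicate 1, 10 rose in vector TAC, and 9 fell and 1 rose with PRODH. Leaving out any other library gave 6 to 8 rises and 3 to 7 falls with PRODH. Postn, the periostin of activated fibroblasts, was 4.11 ± 0.4 higher (limma adjusted p = 3.9e-05) and then -3.25 ± 0.4 (limma adjusted p = 0.00095). The growth factor Ccn2 was 2.9 ± 0.28 higher and -1.54 ± 0.28 with PRODH, and its relative Ccn5 3.14 ± 0.36 higher and -2.02 ± 0.36. Both comparisons kept the calls of these 3 genes in all 12 fits that left out 1 library.

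Of 20 other genes whose proteins share the type 1 repeat of Thbs1 and Thbs2, 3 rose and 1 fell in vector TAC, with a median of 0.23. With PRODH 3 fell and 0 rose, with a median of -0.03. The gene that fell in vector TAC kept its call in 3 of 12 fits that left out 1 library. Rises numbered 6 and falls with PRODH 5 when library 1 of vector TAC was left out, at medians of 0.45 and -0.18, and leaving out any other library gave 2 to 3 of each. The rises with all 12 libraries were Cilp, a matrix protein of loaded fibroblasts, at 4.77 ± 0.36 (limma adjusted p = 1.2e-05), Cilp2 at 4.0 ± 0.88 and Adamtsl2, a microfibril protein, at 2.43 ± 0.26. With PRODH they were at -3.56 ± 0.36, -3.68 ± 0.88 and -1.45 ± 0.26. The call of the rise of Cilp2 ended without vector TAC replicate 2 or 3, and that of its fall without those or any PRODH TAC library.

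Proteases that cut thrombospondins and enzymes that modify them moved both ways. Of 14, 2 rose and 2 fell in vector TAC, with a median of 0.18, and 1 rose and 2 fell with PRODH, with a median of 0.03. Leaving out library 1 of vector TAC, 5 rose and 3 fell in vector TAC, and 2 rose and 3 fell with PRODH, where the median turned to -0.23. Leaving out any other library kept the counts of 2 and 2 in vector TAC and gave 0 to 1 rises and 0 to 2 falls with PRODH. The gelatinase Mmp2 was 1.46 ± 0.25 higher (limma adjusted p = 0.0021) and then -1.32 ± 0.25, a call that ended without vector TAC replicate 2 at -1.06. Mmp14, which activates Mmp2, was at 1.17 ± 0.23 and then -0.9 ± 0.23, and the latter call ended on leaving out library 3 of PRODH sham, library 2 or 3 of vector TAC, or any library of PRODH TAC. Adamts7, a protease that cuts Comp, fell at -1.34 ± 0.25 in vector TAC (limma adjusted p = 0.0033). The serine protease Htra1 fell at -0.92 ± 0.13 (limma adjusted p = 0.00041) and was 0.51 ± 0.13 higher with PRODH, a call that ended on leaving out library 2 of vector sham or of vector TAC, library 1 or 3 of PRODH sham, or any library of PRODH TAC. TAC against sham in PRODH mice, with 0.0236% of all genes called, gave 0 calls in each of these 7 lists. Without vector TAC replicate 1, where 0.734% of all genes were called higher, 6 of the TGF-beta genes, 5 of the matrix partners, 3 of the matricellular genes and 3 of the genes with type 1 repeats were called higher. Leaving out library 3 of vector sham or library 2 of PRODH TAC called 1 matricellular gene.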

How the data were processed

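Per the labels' protocols, TRIzol was used to extract RNA from mouse heart tissue for 12 libraries, DNase I to remove DNA, and a SMARTER mRNA kit to build the libraries. The sources used here do not give the aligner, counter, genome build, annotation or strand setting. The deposited signal is a gene's read count over the size factor of its library, which the values themselves show: dividing by each column's step gave whole reads for 100% of values within 0.01. Totals were 10.13 to 15.23 M reads.

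The main test was limma 3.58.1 (trended prior) run in R 4.3.3, with values taken as log2(value + 1). It tested the 21173 genes that reached a value of 1 in 3 or more libraries. It fitted 4 group means over 12 libraries, with Benjamini-Hochberg adjustment over all genes tested and a threshold of 0.05. On this scale differences of genes with few reads come out too small. Exon lengths and overlapping genes came from GENCODE M21, to which 24735 identifiers matched, 24104 with the same symbol, and promoters from RefSeq (GRCm38.p6), where Thbs2, Thbs3 and Thbs4 matched. Replicates differed by more than sampling noise (chi-square per degree of freedom 4.37 to 87.22). The procedure was tested on simulated data.

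The members and gene lists were chosen with earlier results of these data known. Named genes are the 5 members, per list up to 3 genes with the smallest p among those called in each of the main pair of comparisons, the 5 genes most like each member, Prodh and cell type markers. A gene that this rule names is not reported here. Cd36, Cd47, Atf6, Hspa5, Mtx1, Tnmd and Col2a1 are named for their role or overlap, whatever their values. Alternatives were a pseudocount of 0.1, no filter or a minimum of 10, quantile scaling or equal totals, a fit of only the groups compared, a block for the replicate number, edgeR 4.0.16 and DESeq2 1.42.0 on the recovered reads, and leaving out each library. A fit that left out both vector TAC replicate 1 and PRODH sham replicate 2 was chosen after seeing the data.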

Additional observations from a re-analysis of the deposited data

How the results depend on the processing

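Of 655 alternative values of the 30 member results, 591 kept their direction and their side of the threshold, 14 lost the call, 31 gained it and 19 turned direction. Thbs1, Thbs4 and Comp in TAC against sham in vector mice and Thbs4 in PRODH against vector TAC kept their calls under every alternative run. Thbs3 in TAC against sham in vector mice lost its call with quantile scaling (1.15), equal totals (1.27) and only the groups compared (1.22). PRODH against vector TAC called Thbs3 by edgeR (-1.38) and DESeq2 (-1.36). Without the pair of libraries richest in mesothelial markers it called Thbs1 (-1.17), Thbs2 (-0.57) and Thbs3 (-1.69). Between sham groups, directions turned with equal totals for Thbs1 (-0.008) and Thbs2 (-0.006), by edgeR (-0.33) and DESeq2 (-0.35) for Comp, and without that pair for Thbs1 (-0.16), Thbs4 (0.053) and Comp (-0.14). Thbs2 in TAC against sham in vector mice turned to 0.055 without that pair. In PRODH mice, TAC called Thbs1 with only the groups compared (2.17), by DESeq2 (2.14) and without that pair (2.4), Thbs2 with only the groups compared (-0.59) and without that pair (-0.696), and Thbs4 with only the groups compared (0.85). The difference between both TAC responses called Thbs4 without a filter (-5.15), by edgeR (-5.77), by DESeq2 (-5.75) and without that pair (-6.43), where Thbs3 (-1.5) and Comp (-5.31) were also called. PRODH TAC against vector sham called Thbs1 with only the groups compared (2.25), by DESeq2 (2.2) and without that pair (2.25). The cause of these changes was not tested.

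Deviations of same-numbered libraries from their group means correlated between -0.049 and 0.14. Libraries with different numbers were not set beside them, so this cannot decide whether the replicate number pairs the libraries. The replicate block called Thbs4 in the difference between responses (-5.15) and Thbs1 in PRODH TAC against vector sham (2.25). It raised the count of calls in the former from 22 to 35.

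Leaving out 1 library gave ranges of 0.83 to 1.75 for Thbs3 and -0.57 to 0.055 for Thbs2 in TAC against sham in vector mice. In PRODH against vector TAC they were -1.17 to -0.031 for Thbs1, -0.57 to 0.058 for Thbs2, -1.69 to -0.77 for Thbs3 and -5.45 to -3.69 for Comp. Between sham groups they were -0.16 to 0.35 for Thbs1, -0.033 to 0.197 for Thbs2, -0.299 to 0.32 for Thbs4 and -0.29 to 1.38 for Comp. They were 2.01 to 2.4 for Thbs1 in PRODH mice, -1.36 to -0.44, -6.34 to -4.4 and -5.77 to -4.01 for Thbs3, Thbs4 and Comp in the difference between responses, and 2.09 to 2.52 for Thbs1 in PRODH TAC against vector sham.

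Counts of genes called moved more. TAC against sham in vector mice called 1645 genes, 652 with only the groups compared, 3602 without that pair and 821 to 3455 leaving out 1 library. PRODH against vector TAC called 831, 383 with only the groups compared, 1509 by DESeq2, 2887 without that pair and 247 to 2754. PRODH against vector sham called 0, 7 by DESeq2, 2 without that pair and 0 to 3. TAC against sham in PRODH mice called 5, 12 with equal totals, 1023 with only the groups compared, 11 by edgeR, 125 by DESeq2, 318 without that pair and 0 to 296. The difference between responses called 22, 7 with a pseudocount of 0.1, 7 with a minimum of 10, 206 by DESeq2, 274 without that pair and 0 to 412. PRODH TAC against vector sham called 19, 46 with only the groups compared, 105 by DESeq2, 112 without that pair and 2 to 88.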
